A study of Mus musculus with 18 samples.

Results

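Cell cycle and DNA replication genes were followed in the liver of mouse pups made hypothyroid for a short time. The 38 genes were listed by their place in the cycle, from entry into S phase to the separation of chromosomes, by a rule that uses no measured value. Earlier results of these data were known when the genes were listed. A probe was found by its RefSeq accession for 37 of the 38, the exception being Mki67, the gene of the proliferation antigen Ki-67. Together the 37 genes had 47 of the 41174 probes on the array, of which 46 were among the 32056 probes tested, and each gene is given by its brightest tested probe. All 37 of these probes were well above background on all 10 arrays.

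Dividing cells copy their DNA once and then share it between daughter cells. Cyclin D1 and cyclin E carry cells towards S phase, CDC6 and CDT1 load the ring-shaped MCM2-7 helicase on replication origins, and PCNA clamps the polymerases to DNA while ribonucleotide reductase, thymidylate synthase and thymidine kinase supply nucleotides. Cyclins A2 and B with the kinase CDK1 then drive mitosis, in which the Aurora kinases, kinesin motors and the spindle checkpoint order the chromosomes and the anaphase-promoting complex ends the phase. The liver still grows after birth, so that some of its hepatocytes and blood-forming cells divide, whereas adult hepatocytes rarely do. Thyroid hormone is known to make rat and mouse hepatocytes divide when it is given in excess.

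The arrays held liver RNA from C57BL/6 male pups killed on postnatal day (PND) 15, 5 of them control and 5 hypothyroid, with 1 pup taken per litter. The dams of the hypothyroid pups drank sugar water with 0.05% methimazole (MMI) and 1% sodium perchlorate from PND 12, which block the making of thyroid hormone, and control dams drank sugar water alone. Pups of both groups were injected with saline before they were killed, and hypothyroidism in this model is that of the whole pup and its dam, not of the liver alone. Each liver RNA was hybridised with a universal mouse reference RNA on a 2-colour array. Levels below are log2 ratios of liver to this reference, except where the liver channel alone is named. The livers are named by group and animal number, and values for single arrays are given in the order control 881, 832, 522, 616 and 391, then hypothyroid 891, 576, 311, 723 and 626.

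Several arrays stood apart from their labels or groups. On slide 141, which carried control 832 and hypothyroid 576, the array ratios were inverted relative to the remaining slides (r = -0.974 and -0.978 over all probes with the dyes as labelled), and the channels of this slide were exchanged. Control 616 had a compressed ratio scale. Its ratios rose by 0.608 for each unit of the mean of the other 9 arrays, against 0.968 to 1.06 on those arrays, and 568 of its spots were outliers against 82 to 154 elsewhere. Hepatocyte genes had a median of 3.0 on control 616 and of 4.45 to 5.13 on the other 9 arrays. The main results are therefore given with and without control 616, and some single genes with all arrays only. Of 3 thyroid hormone targets read as a check of the treatment, Dio1, the deiodinase, was lower by 0.94 log2 units in the hypothyroid livers, Thrsp by 1.16 and Me1, malic enzyme, by 0.48 (fitted changes), and of these Me1 alone separated the 5 control from the 5 hypothyroid arrays. Without control 616 all 3 separated the groups, with changes of -1.27, -1.38 and -0.44. In limma's moderated test all 3 had an unadjusted p below 0.05 with and without control 616. None of the 3 had an adjusted p below 0.05 in either fit.

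Cell cycle RNA was scarcer in PND 15 liver than in the reference, which is made from mouse cell lines. The mean log2 ratio was below 0 for 36 of 37 genes in either group, and below -1 for 26 genes in the control livers without 616 and 27 in the hypothyroid livers. Of all 32056 probes, 8.68% were below -1 in those control livers. Tk1, cytosolic thymidine kinase, was the exception, at 0.04 ± 0.16 (SD, n = 5) in control and 0.26 ± 0.12 (SD, n = 5) in hypothyroid livers. The lowest ratios were those of Bub1, a kinase of the spindle checkpoint, at -2.09 ± 0.35 (SD, n = 5) in control and -2.44 ± 0.26 (SD, n = 5) in hypothyroid livers, and of Cdt1, at -2.11 ± 0.47 and -2.14 ± 0.15 (SD, n = 5 each). A ratio compares liver with the reference for 1 probe and does not rank genes by abundance.

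**Figure D1:**
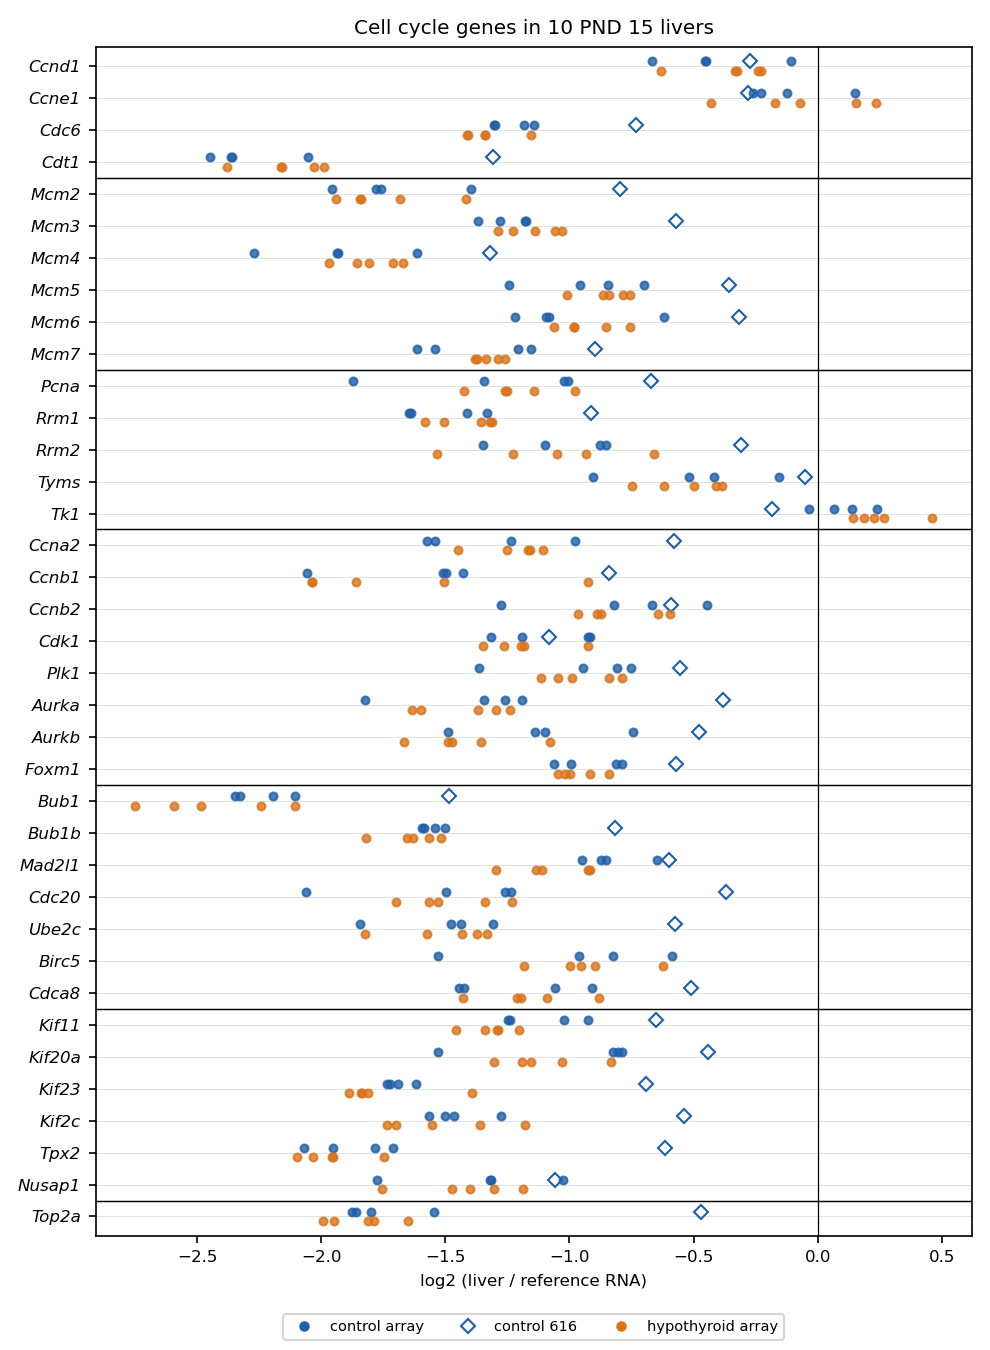
Log2 ratio of liver to reference RNA (x axis) of each of 37 cell cycle genes (rows, divided by role) on each of 10 arrays. Blue points are control arrays, open blue diamonds control 616 and orange points hypothyroid arrays; control 616 is the highest array for 30 of the 37 genes, and the remaining points of both groups overlap for every gene.

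Between the groups no cell cycle gene passed the test. No gene reached an adjusted p of 0.05 in limma's moderated test, where the adjusted values of the 37 genes ran from 0.544 to 0.989, and over the whole array 2 of 32056 probes did, or 0.00624%. At an unadjusted p of 0.05, 3 genes were lower in hypothyroid livers and 1 was higher, that is 4 of 37, beside a background of 7.42% of all probes (4.08% lower and 3.34% higher). No gene separated the 5 control from the 5 hypothyroid arrays, against 2.07% of all probes (1.00% with lower and 1.07% with higher values in hypothyroid livers). In bulk liver RNA a smaller number of dividing cells and less RNA in each of them cannot be told apart.

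The direction of the small differences rested on 1 array. With all 10 arrays 32 genes had a lower mean in hypothyroid livers and 5 a higher one, with a median change of -0.12 log2 units against -0.01 over all probes, of which 53.8% were lower. Without control 616 the genes divided evenly, 19 lower and 18 higher, with a median change of -0.02, and 50.7% of all probes were lower. Of the 37, 2 then had an unadjusted p below 0.05, beside 7.36% of all probes, none had an adjusted p below 0.05, beside 0.0936%, and none separated the groups, beside 2.91%. The signal of the liver channel alone, without the reference, was quantile-normalized over all arrays. On this channel 27 genes were lower, the median change was -0.09 and none had an unadjusted p below 0.05, beside 5.42% of all probes. When arrays were centred on their median and the loess step was left out, 19 genes changed sign relative to the main analysis while the median of all probes moved from -0.01 to 0.09.

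The intervals bound the size of a difference in these genes. All 37 of the 95% intervals lay within 1 log2 unit of no change, that is within a 2-fold change, whether control 616 was kept or not. On the liver channel alone 36 of 37 did, the exception being Kif20a with an upper bound of 1.12. Intervals within 0.5 log2 units numbered 21 with all arrays, 35 without control 616 and 16 on the liver channel. Without control 616 the widest bounds were -0.61 for Aurkb and 0.46 for Pcna. The median standard error of a change was 0.16 with all arrays and 0.12 without control 616. The SD among control livers had a median of 0.36 over the genes with control 616 and 0.23 without it, and 0.16 among hypothyroid livers.

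**Figure D2:**
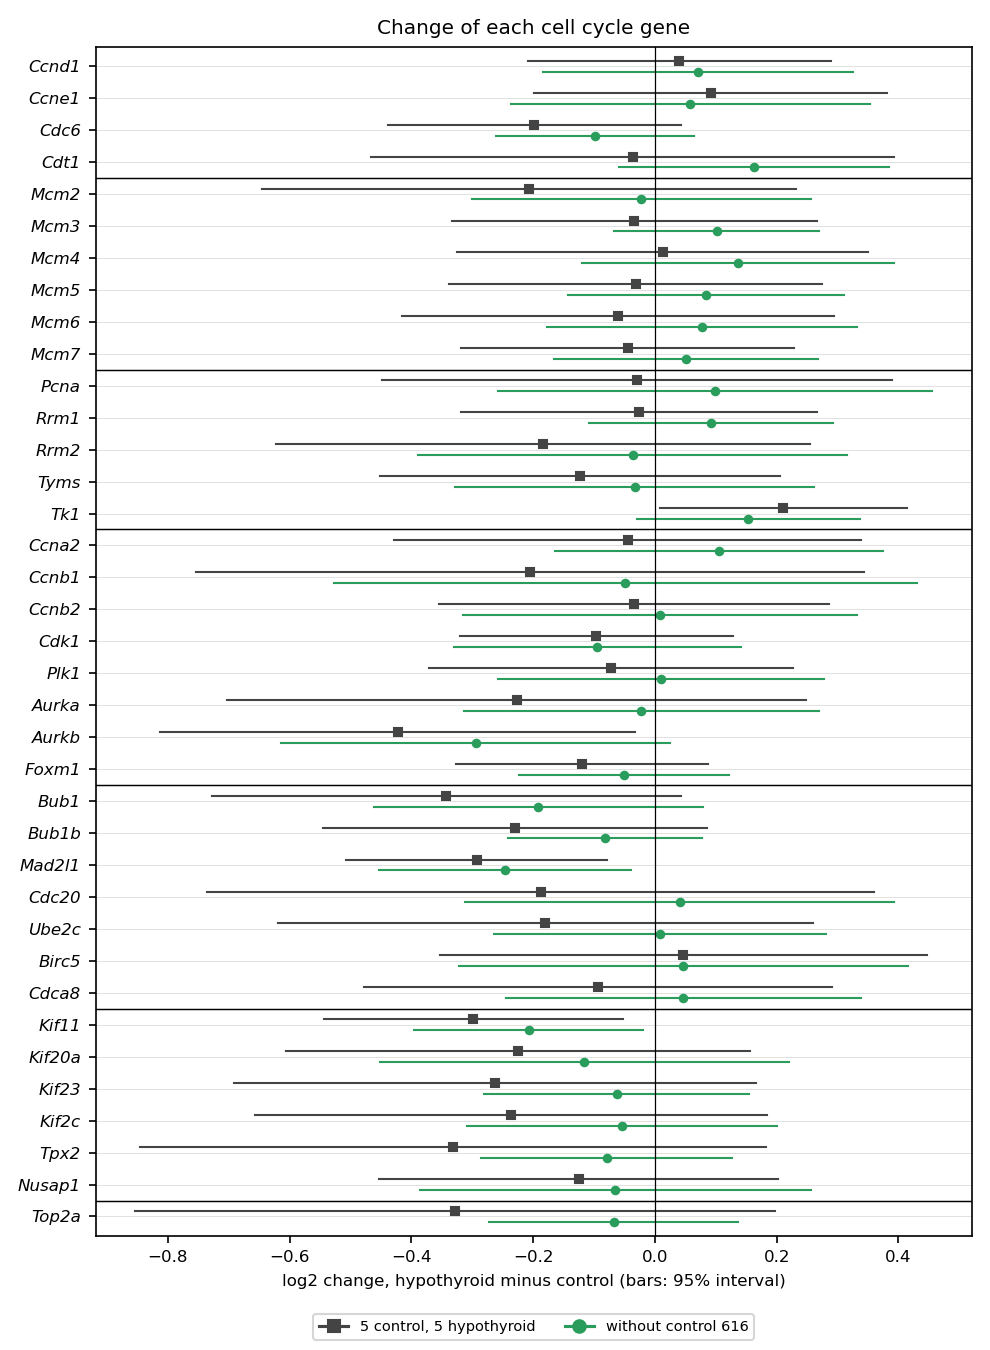
Log2 change in hypothyroid against control livers (x axis) of 37 cell cycle genes with 95% intervals, from all 10 arrays (grey squares) and without control 616 (green circles). All intervals stay within 1 log2 unit of 0, and most estimates move up towards 0 or past it when control 616 is left out.

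Genes of S phase entry and of replication had median changes near 0 with all arrays and slightly above 0 without control 616. Ccnd1, cyclin D1, read -0.45, -0.11, -0.67, -0.27 and -0.45 in the control livers and -0.34, -0.32, -0.63, -0.24 and -0.23 in the hypothyroid livers. Its groups overlapped over nearly their whole range, with a change of 0.04 ± 0.11 (SE). The 4 genes of S phase entry and licensing (Ccnd1, Ccne1, Cdc6 and Cdt1) had a median change of 0.00, and 0.06 without control 616. Cdc6, a loader of the helicase, had the largest difference of the 4 with all arrays, -0.20 ± 0.11 (SE), and -0.10 ± 0.07 (SE) without control 616, where Cdt1 had the largest, 0.16 ± 0.10 (SE).

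The 6 subunits of the MCM helicase overlapped widely between the groups. Mcm6 read -0.62, -1.09, -1.08, -0.32 and -1.22 in control and -0.98, -0.75, -0.98, -1.06 and -0.85 in hypothyroid livers. Control 616 was the highest and control 391 the lowest, with all 5 hypothyroid livers between them. Changes of the 6 ran from -0.21 (Mcm2) to 0.01 (Mcm4) with a median of -0.04, and without control 616 from -0.02 (Mcm2) to 0.14 (Mcm4) with a median of 0.08. Mcm7 was the tightest among hypothyroid livers, at -1.33 ± 0.05 (SD, n = 5) against -1.28 ± 0.29 (SD, n = 5) in control livers.

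Among the genes of the clamp and of nucleotide supply, Tk1 had the only positive difference with an unadjusted p below 0.05. It read 0.24, 0.06, 0.14, -0.18 and -0.03 in control livers. In hypothyroid livers it read 0.14, 0.46, 0.23, 0.18 and 0.27. The highest control liver lay inside the hypothyroid range and the lowest was control 616. The change was 0.21 ± 0.09 (SE), or 1.16-fold, with limma p = 0.0428, adjusted p = 0.661 and an exact two-sided permutation p of 0.0476. Without control 616 it was 0.15 ± 0.08 (SE, limma adjusted p = 0.761). Pcna, the clamp, changed by -0.03 ± 0.19 (SE), Rrm1 and Rrm2, the subunits of ribonucleotide reductase, by -0.03 ± 0.13 and -0.18 ± 0.20 (SE), and Tyms, thymidylate synthase, by -0.12 ± 0.15 (SE). Without control 616 Pcna changed by 0.10 ± 0.16 and Rrm1 by 0.09 ± 0.09 (SE). Rrm2 then changed by -0.04 ± 0.16 and Tyms by -0.03 ± 0.13 (SE).

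The 8 cyclins, kinases and the factor FOXM1 of G2 and mitosis all had lower means with all arrays, with a median change of -0.11, while 5 of 8 were lower without control 616 (median -0.04). Aurkb, the Aurora kinase of the chromosomal passenger complex, read -0.75, -1.14, -1.10, -0.48 and -1.49 in control livers. In hypothyroid livers it read -1.47, -1.08, -1.66, -1.49 and -1.36. Control 832, 522 and 391 lay inside the hypothyroid range, and hypothyroid 891, 576 and 626 inside the control range. The change of -0.42 ± 0.18 (SE), 1.34-fold lower, was the largest of the 37 genes (limma p = 0.0363, adjusted p = 0.654, exact permutation p = 0.0952). It was -0.29 ± 0.15 (SE, limma adjusted p = 0.723) without control 616 and -0.21 (limma adjusted p = 0.823) on the liver channel alone. Cdk1, the mitotic kinase itself, read -0.92, -1.32, -0.93, -1.08 and -1.19 in control and -1.19, -1.26, -1.35, -0.93 and -1.18 in hypothyroid livers. Both groups thus spanned nearly the same range, with a change of -0.10 ± 0.10 (SE). For Ccnb1, cyclin B1, the brightest probe gave -0.21 ± 0.25 (SE), and its other tested probes gave 0.02 ± 0.16 and -0.18 ± 0.20 (SE), so that the sign depended on the probe.

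Genes of the spindle checkpoint and of the anaphase-promoting complex held the difference with the smallest p. Mad2l1, the checkpoint protein MAD2, read -0.88, -0.85, -0.65, -0.60 and -0.95 in control livers. In hypothyroid livers it read -0.92, -0.93, -1.30, -1.11 and -1.13. Only control 391 reached into the hypothyroid range. The change of -0.29 ± 0.10 (SE), 1.23-fold lower, had limma p = 0.0120, adjusted p = 0.544 and an exact permutation p of 0.0238. Without control 616 it was -0.25 ± 0.09 (SE, limma adjusted p = 0.561), and on the liver channel alone -0.07 (limma adjusted p = 0.888). The 7 genes had a median change of -0.19 with all arrays and 0.01 without control 616. Cdc20, which activates the complex, showed how far 1 array carried this group: it read -0.37 on control 616 against -2.06 to -1.23 on the other 4 control arrays and -1.70 to -1.23 on the hypothyroid arrays, and its change went from -0.19 to 0.04 when that array was left out.

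The 6 spindle motors and microtubule proteins had lower mean ratios in every gene without control 616 too, as Top2a had, although the median change shrank from -0.25 to -0.07. On the liver channel alone, with all arrays, 5 of the 6 were lower and Kif20a was higher by 0.34 (limma adjusted p = 0.828). Kif11, the motor that pushes spindle poles apart, read -1.25, -1.24, -0.93, -0.65 and -1.02 in control livers. In hypothyroid livers it read -1.29, -1.29, -1.46, -1.34 and -1.20. Control 881 and 832 lay inside the hypothyroid range, and the other 3 controls lay above all hypothyroid livers. The change was -0.30 ± 0.11 (SE), 1.23-fold lower, with limma p = 0.0219, adjusted p = 0.612 and an exact permutation p of 0.0238, and -0.21 ± 0.09 (SE, adjusted p = 0.613) without control 616. It was -0.04 (limma adjusted p = 0.928) on the liver channel alone. Kif20a, Kif23, Kif2c, Tpx2 and Nusap1 changed by -0.33 to -0.13 with all arrays and by -0.12 to -0.05 without control 616.

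Top2a, the topoisomerase that untangles sister chromatids and a common proliferation marker, read -1.88, -1.80, -1.54, -0.47 and -1.86 in control livers. In hypothyroid livers it read -1.81, -1.65, -1.99, -1.95 and -1.79. Apart from control 616 the groups coincided. The change of -0.33 ± 0.24 (SE) became -0.07 ± 0.09 (SE) without that array.

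Single arrays differed in the ratios of these genes as a set. The median over the 37 genes was -0.58 on control 616, -1.49 to -1.08 on the other control arrays and -1.45 to -1.19 on the hypothyroid arrays. Relative to each gene's mean on the other 9 arrays, control 616 stood 0.61 higher, control 391 0.21 lower (-0.21) and hypothyroid 311 0.24 lower (-0.24). Control 391 was the lowest array for 14 genes and hypothyroid 311 for 9. By role, control 616 stood highest for Top2a and for checkpoint genes and least high for S phase entry, and control 391 stood lowest for the G2 and mitotic cyclins and kinases (-0.45). On the liver channel alone the median of the 37 genes was 10.3 on control 616, within the 9.99 to 10.5 of the other 9 arrays. Control 616 was still the highest array for 19 genes there. The part of its compressed ratio scale in these deviations was not tested.

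**Figure D3:**
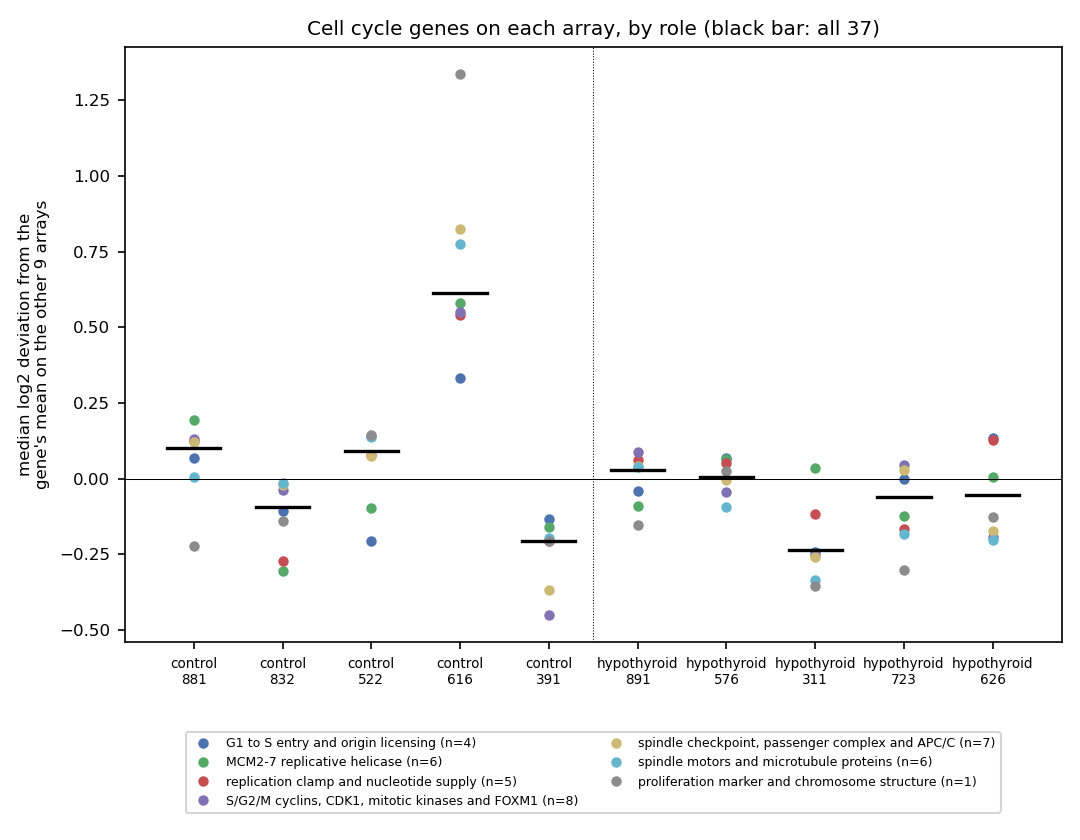
Median log2 deviation of each role group of cell cycle genes from the genes' own means on the other 9 arrays (y axis), for 5 control arrays (left of the dotted line) and 5 hypothyroid arrays (right). The black bar is the median over all 37 genes, 0.61 on control 616 and between -0.24 and 0.10 on the other 9 arrays.

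Each of 4 slides held 1 array of either group, and slide was taken as the batch. The median difference of hypothyroid from control over the 37 genes was -0.57 on slide 100 (36 genes, 33 lower), which holds control 616. It was -0.29 on slide 136 (30 of 37 lower), -0.04 on slide 139 (24 of 37 lower) and 0.08 on slide 141 (11 of 37 lower), while the medians of all probes ran from -0.05 to 0.01. The 4 pairs did not share a direction. In the ratios Ccnb2, Mad2l1, Cdc20, Kif11 and Kif20a were lower on 4 of 4 slides, and the share of all probes that were so was not counted. On the liver channel alone each of these genes was higher on at least 1 slide. Kif20a read 8.71 there on control 616 and 10.44 on hypothyroid 626, and Mad2l1 8.03 and 8.26. With slide as a fixed block the change of Mad2l1 was -0.33 and that of Kif11 -0.29 (limma adjusted p = 0.698 for both).

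RNA of other cell types moved with the arrays as well. Transcripts of the exocrine pancreas, a neighbour of the liver in the abdomen, were high on 3 control arrays: the median of 10 genes was 4.00 on control 832, 4.06 on control 522 and 2.67 on control 616, against 0.16 to 0.36 on the other 7 arrays. The summed ratios of these genes ran from 54.1 to 309 in control and from 48.5 to 58.4 in hypothyroid livers. The sums include Pnliprp1 and Amy2a5, which were high in both groups. Their means were 4.48 and 4.58 in control and 4.51 and 4.39 in hypothyroid livers. Of the 10 genes 9 had a lower mean in hypothyroid livers. All 10 were well above background on at least 1 array. Without these 3 control arrays 18 of the 37 cell cycle genes were lower, with a median change of 0.02, Mad2l1 changed by -0.17 (limma adjusted p = 0.845) and Kif11 by -0.18 (limma adjusted p = 0.770).

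Cell types that divide in the young liver were also set beside these genes. Granulocyte genes, which mark a blood cell line made in young liver, had array medians of 0.74 to 2.17 in control and 0.89 to 2.98 in hypothyroid livers. The highest was hypothyroid 311, where the cell cycle genes were low. Erythroid genes ran from 0.92 to 1.37 and from 1.30 to 1.85, with 9 of 11 granulocyte genes and 8 of 11 erythroid genes higher in hypothyroid livers, and Epb4.2 and Rhag well above background on no array. Of hepatocyte genes 13 of 13 were higher (median change 0.61, and 0.28 without control 616), with summed ratios of 104 to 796 in control and 795 to 840 in hypothyroid livers. The part of these cell types in the differences above was not tested. Median changes of lymphocyte, Kupffer cell, endothelial, stellate cell, cholangiocyte and skeletal muscle genes were 0.00, 0.11, 0.01, -0.34, -0.30 and -0.22 with all arrays, and 0.02, -0.05, -0.11, -0.14, -0.08 and -0.17 without control 616, so that the Kupffer cell and endothelial medians changed sign.

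The promoters of these genes carry known cell cycle motifs. The E2F motif is bound by the E2F factors, which turn on genes of S phase. The cell cycle homology region (CHR) is bound by LIN54 of the MuvB complex, which holds mitotic genes silent in resting cells, and CCAAT boxes are bound by NF-Y. Promoters of 31 of the 38 genes, taken from RefSeq on build GRCm38.p6 from 250 bases before to 50 after the transcript start, were searched on both strands for TTTGAA (CHR), TTTNNCGC (E2F) and CCAAT. CHR letters were found in 14 of 31 genes (45.2%) against 17.9% of all 32851 promoters of that length. E2F letters were found in 8 (25.8%) against 5.17%, and CCAAT in 22 (71.0%) against 37.4%. In 2 places a match to one motif overlapped a match to another.

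Most genes with E2F letters act early in the cycle and most with CHR letters late. All but 1 of the 8 genes with E2F letters act in licensing, the helicase or nucleotide supply (Cdc6, Cdt1, Mcm3, Mcm5, Mcm6, Mcm7 and Tyms), and the other is Cdk1. All but 1 of the 14 with CHR letters act in G2 or mitosis or mark proliferation (Ccnb2, Cdk1, Plk1, Aurka, Bub1b, Cdc20, Ube2c, Cdca8, Kif11, Kif23, Kif2c, Mki67 and Top2a), and the other is Mcm2. Cdk1 alone held both. The following stretches run 5′ to 3′ in the direction of the gene from 150 bases before to 30 after its start, with matches in capitals. They were chosen to show E2F letters in helicase genes (Mcm3, chr1:20820283-20820462, minus strand, and Mcm6, chr1:128359676-128359855, minus strand), both kinds in Cdk1 (chr10:69352883-69353062, minus strand), and CHR letters next to the start in the mitotic genes Top2a (chr11:99024160-99024339, minus strand), Kif11 (chr19:37376232-37376411, plus strand), Cdc20 (chr4:118437314-118437493, minus strand) and Ube2c (chr2:164769779-164769958, plus strand).
Mcm3: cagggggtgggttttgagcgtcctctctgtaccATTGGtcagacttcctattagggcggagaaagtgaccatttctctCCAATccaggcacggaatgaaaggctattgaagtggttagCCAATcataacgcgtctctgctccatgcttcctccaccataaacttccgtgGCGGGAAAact
Mcm6: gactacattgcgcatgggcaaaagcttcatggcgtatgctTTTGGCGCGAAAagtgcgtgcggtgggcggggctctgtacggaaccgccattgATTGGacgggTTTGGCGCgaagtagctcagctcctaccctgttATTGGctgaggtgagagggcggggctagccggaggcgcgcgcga
Cdk1: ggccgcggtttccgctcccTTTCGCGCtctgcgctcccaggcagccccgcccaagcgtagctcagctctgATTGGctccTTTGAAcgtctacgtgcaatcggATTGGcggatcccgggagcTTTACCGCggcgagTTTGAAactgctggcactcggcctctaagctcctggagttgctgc
Top2a: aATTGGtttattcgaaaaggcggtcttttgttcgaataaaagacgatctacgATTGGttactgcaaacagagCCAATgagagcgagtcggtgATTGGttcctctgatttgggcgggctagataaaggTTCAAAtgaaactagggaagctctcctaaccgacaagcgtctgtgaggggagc
Kif11: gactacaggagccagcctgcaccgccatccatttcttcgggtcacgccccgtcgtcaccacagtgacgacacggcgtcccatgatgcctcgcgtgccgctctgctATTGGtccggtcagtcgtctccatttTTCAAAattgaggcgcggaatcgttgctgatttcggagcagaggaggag
Cdc20: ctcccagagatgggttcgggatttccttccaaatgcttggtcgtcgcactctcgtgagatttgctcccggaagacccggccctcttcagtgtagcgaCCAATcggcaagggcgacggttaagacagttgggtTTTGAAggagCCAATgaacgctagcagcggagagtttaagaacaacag
Ube2c: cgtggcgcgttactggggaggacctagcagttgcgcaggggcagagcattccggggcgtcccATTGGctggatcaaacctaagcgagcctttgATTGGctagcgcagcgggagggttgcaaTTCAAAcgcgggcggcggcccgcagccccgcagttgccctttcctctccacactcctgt
In the last 5 of these genes the CHR letters nearest the start begin 15 bases before it in Cdk1, 23 in Top2a, 19 in Kif11, 18 in Cdc20 and 29 in Ube2c, downstream of a CCAAT box in each. In Mcm6 the E2F letters farthest from the start are a pair that overlap on opposite strands, and another match begins 47 bases before the start.

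**Figure D4:**
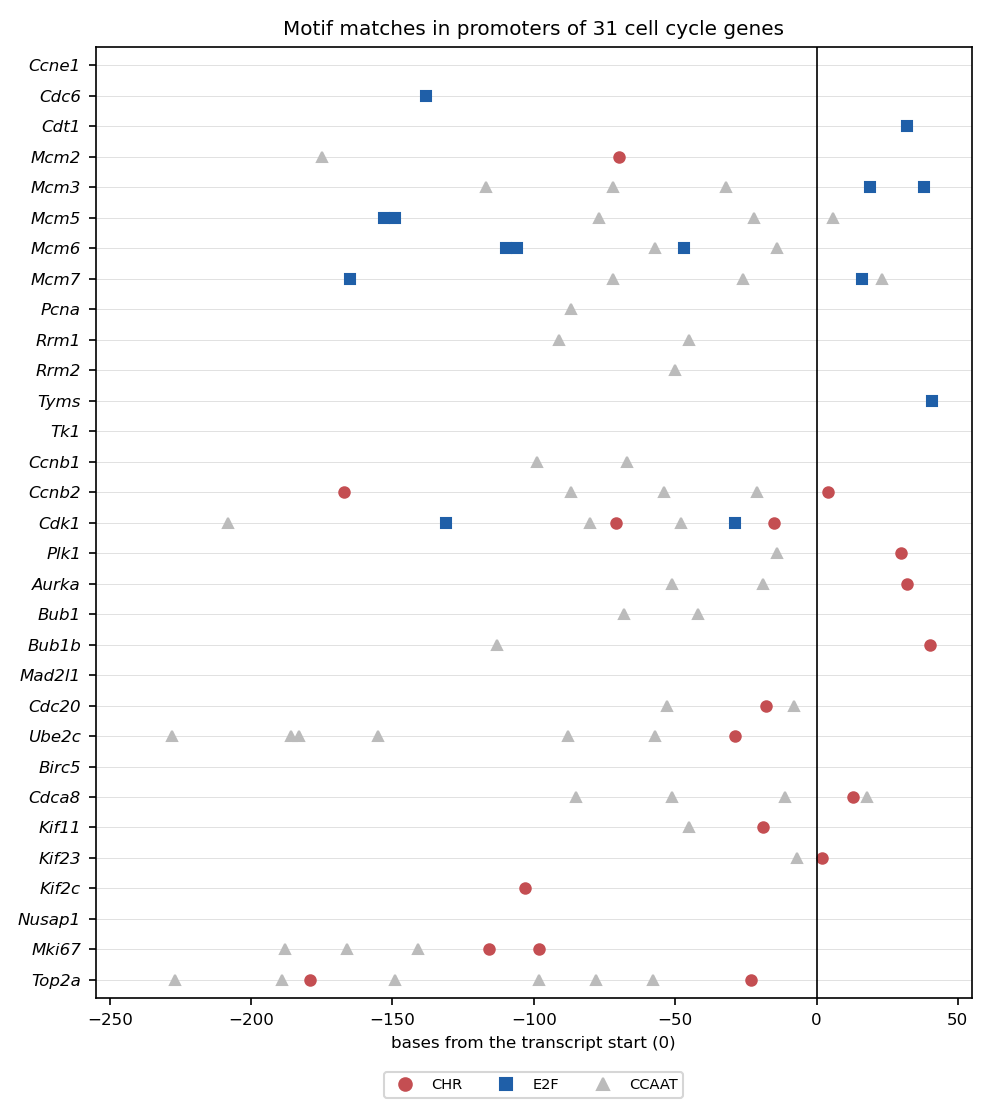
Positions of motif matches on either strand in the promoters of 31 cell cycle genes (rows, in the order of their roles), in bases from the transcript start (x axis, from 250 before to 50 after; for Mcm7, with more than 1 start, the promoter listed first). Blue squares (E2F) lie in the upper rows of licensing, helicase and nucleotide supply genes and in Cdk1, red circles (CHR) mostly in the lower rows of mitotic genes, and grey triangles (CCAAT) in both.

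The median changes by motif class were small. The 12 measured genes with CHR and no E2F letters had a median change of -0.22, and -0.02 without control 616. The 7 with E2F and no CHR letters had -0.04, and 0.08 without control 616. The 10 with neither, among them Mad2l1 and Tk1, had -0.08, and 0.00 without control 616. Kif11 was the only gene with an unadjusted p below 0.05 that carried CHR letters, and Aurkb had no entry among these promoters.

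Around the core genes, 124 of 135 further cell cycle genes in 5 lists were tested. None had an adjusted p below 0.05. At an unadjusted p of 0.05, 10 were lower and 3 higher in hypothyroid livers, beside 4.08% and 3.34% of all probes, and 3 of the lower separated the 2 groups, beside a background of 1.00% of all probes that separated them downwards. Without control 616, 6 were lower and 6 higher at that threshold, beside 7.36% of all probes in both directions.

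Brakes of the cell cycle held 2 of the 3 genes that separated the groups. Of 19 tested, 14 had lower means (median change -0.18, and -0.05 without control 616), with 4 lower and 1 higher at an unadjusted p of 0.05, beside 4.08% and 3.34% of all probes. Gadd45a, a stress-induced growth arrest gene, read -1.37, -1.60, -1.74, -0.26 and -1.57 in control livers. In hypothyroid livers it read -1.89, -2.22, -1.86, -1.80 and -2.04, all below the controls. The change of -0.65 ± 0.24 (SE), 1.57-fold lower, had a limma adjusted p = 0.612. The genes that separate the groups were named for doing so, and the separation is a description. Without control 616 the change was -0.39 ± 0.10 (SE, limma adjusted p = 0.245), and on the liver channel alone -0.40 (limma adjusted p = 0.823).

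Rb1, the retinoblastoma protein that restrains E2F, also separated the groups, at -1.27 to -0.74 in control and -1.51 to -1.32 in hypothyroid livers. Its change was -0.30 ± 0.10 (SE, limma adjusted p = 0.544), and -0.21 ± 0.07 (SE, limma adjusted p = 0.440) without control 616. The remaining 3 brakes below that threshold were picked out after their values were seen. Cdkn1a, the CDK inhibitor p21, read -1.31, -1.74, 0.32, -0.35 and -1.27 in control and -1.78, -1.47, -1.88, -1.40 and -1.91 in hypothyroid livers. Its highest values were those of control 522 and 616, 2 of the 3 arrays with pancreas transcripts. The other of these 3 arrays, control 832, had the lowest control value of Cdkn1a, -1.74. The change was -0.82 ± 0.34 (SE, limma adjusted p = 0.650, exact permutation p = 0.0397), -0.52 without control 522, and -0.40 (limma adjusted p = 0.572) without the 3 control arrays that held pancreas transcripts. Cdkn2d, the inhibitor p19, changed by -0.27 ± 0.08 (SE, limma adjusted p = 0.451, exact permutation p = 0.0159). Cdkn1c, the inhibitor p57 and an imprinted gene, was higher by 0.55 ± 0.25 (SE, limma adjusted p = 0.671, exact permutation p = 0.0159), and by 0.28 ± 0.10 (SE) without control 616, with a level of 3.99 ± 0.21 (SD, n = 4) in the remaining controls and 4.27 ± 0.08 (SD, n = 5) in hypothyroid livers.

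**Figure D5:**
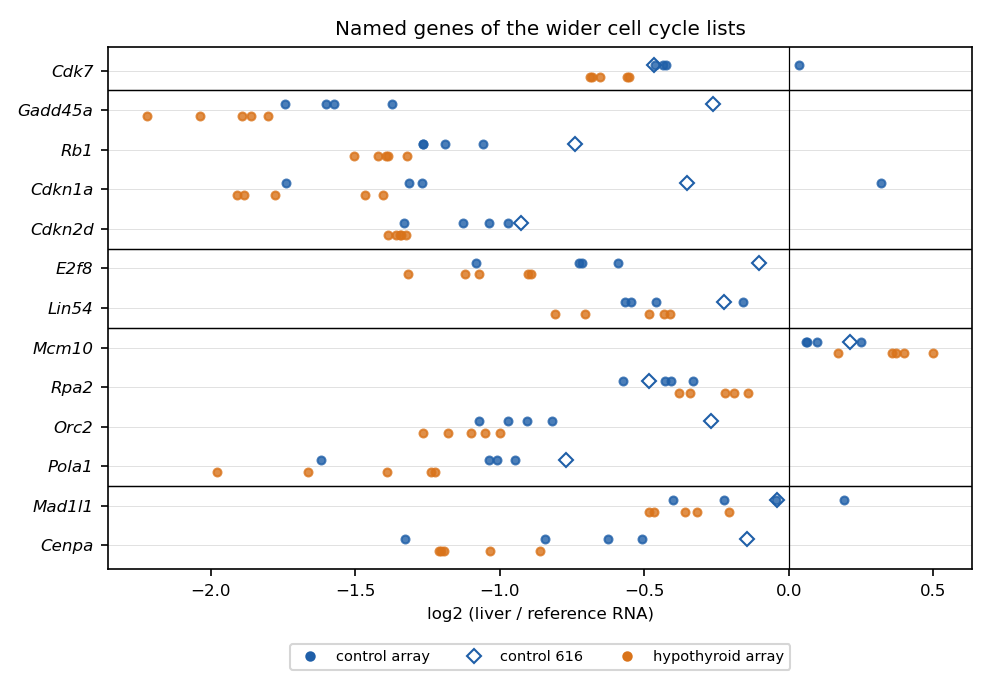
Log2 ratio of liver to reference RNA (x axis) of the named genes of 5 wider cell cycle lists (rows; Cdkn1c, at 2.65 to 4.41, lies off this scale and is left out). Symbols are as in the plot of levels by gene; Cdk7, Gadd45a and Rb1 are the rows in which the blue and orange points do not overlap.

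In the other 4 lists the median changes ran from -0.17 to -0.04, and from -0.04 to 0.05 without control 616. Of 14 G1 cyclins, CDKs and CDC25 phosphatases 11 were lower (median -0.13, and -0.02 without control 616). Among them Cdk7, the kinase that activates other CDKs, read -0.42, 0.04, -0.46, -0.47 and -0.43 in control and -0.68, -0.56, -0.55, -0.65 and -0.69 in hypothyroid livers. These groups did not overlap (-0.28 ± 0.10, SE, limma adjusted p = 0.598), and the change was -0.31 ± 0.10 (SE) without control 616 and -0.16 (adjusted p = 0.832) on the liver channel alone. Of 16 genes of E2F, DP, MuvB and MYB 11 were lower (median -0.04, and 0.05 without control 616). E2f8, a repressing E2F, had the smallest p, with -0.42 ± 0.16 (SE, limma adjusted p = 0.623, exact permutation p = 0.0476), and Lin54, the CHR-binding subunit, came after it with -0.18 ± 0.11 (SE, exact permutation p = 0.167).

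Of 37 genes of replication origins and forks 28 were lower (median -0.09, and 0.02 without control 616). The pair with the smallest p were both higher. Mcm10, which helps to open the helicase, changed by 0.22 ± 0.07 (SE, limma adjusted p = 0.545, exact permutation p = 0.0238), with 0.24 ± 0.08 (SE) without control 616 and 0.33 (limma adjusted p = 0.551) on the liver channel alone. Rpa2, a subunit of the protein that coats single-stranded DNA, changed by 0.19 ± 0.07 (SE, limma adjusted p = 0.612, exact permutation p = 0.0238). Orc2 and Pola1, an origin and a polymerase subunit named after their values were seen, were the lower genes at that threshold (-0.31 ± 0.14 and -0.42 ± 0.18, SE). Of 38 genes of kinetochore, cohesin, condensin and spindle 34 were lower (median -0.17, and -0.04 with 26 lower without control 616). Mad1l1, the partner of MAD2, had -0.26 ± 0.11 (SE, exact permutation p = 0.0556) and Cenpa, the centromeric histone, -0.41 ± 0.18 (SE, exact permutation p = 0.0873), with limma adjusted p of 0.648 and 0.671.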

How the data were processed

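The arrays were Agilent 2-colour mouse arrays, and the deposited files hold the raw spot intensity of each channel as read by the authors with Agilent's Feature Extraction (10.1.1.1, per the file headers). The authors labelled liver RNA with Cy5 and reference RNA with Cy3. The array files were re-normalized here with limma 3.58.1 in R 4.3.3: normexp background correction with an offset of 50, loess with a span of 0.2 within each array with control and outlier spots at weight 0, and spots of a probe averaged. The channels of slide 141 were exchanged. Values of the liver channel alone are log2 background-corrected liver signals, quantile-normalized over all arrays. This channel is the green one on slide 141 and the red one on the other slides. Probes were kept where the liver signal exceeded the trimmed mean (5% trimmed) plus 3 SD of the 153 negative control spots in 4 or more of 5 arrays of a group. Changes were tested with lmFit and eBayes and Benjamini-Hochberg adjustment over 32056 probes. This takes the place of the permutation F test of the authors. Apart from values of the liver channel alone, levels are log2 ratios of the deposited intensities after this correction and normalization. The p-values measure the spread between single pups of separate litters, and 5 arrays per group limit the precision.

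Genes were named by matching each probe's accession to RefSeq (23374 of 41174 probes), and each gene takes its tested probe of highest mean brightness. Named genes were all 38 members and, in each wider list, at most 2 per direction with the largest change among those that separated the groups, or otherwise the 2 with the smallest p. For cell type lists mainly the summed and median levels are given, with few single genes. The members and lists were chosen with earlier results of these data known. Exact permutation tests ran over the 252 assignments of 5 and 5 arrays. Alternatives were other background corrections, centring, spans, filters, slide as a block, each array left out, and 4 chosen after seeing the data. The limma step was tested on simulated data. Tables of the authors' normalized values and the 8 microRNA samples were not used here.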

Additional observations from a re-analysis of the deposited data

Results flagged for a closer look

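Sets of values were taken in each group of 5 livers for each named cell cycle gene and for the median of the 37 core genes. Birc5 had only 4 values in control livers. For each set the gap of an extreme array to its neighbour was taken as a share of the whole range of the group. In 14 of 104 sets (13.5%) this share was above the 95% critical value of Dixon's test. Chance gives about 5% of such sets. Control 616 was the extreme array in 9 of the 14, and was the highest in each of these: the shares were 0.716 for Cdc6, 0.759 for Mcm3, 0.718 for Bub1, 0.885 for Bub1b, 0.890 for Kif23, 0.717 for Kif2c, 0.752 for Tpx2, 0.764 for Top2a and 0.749 for Gadd45a. Kif23 read -0.69 on that array and -1.62 on the next highest control array. Among the hypothyroid livers, 311 was the lowest for Ccnd1 (share 0.732, -0.63 against -0.34), 576 the highest for Cdc6 (0.712, -1.16 against -1.34), 891 the highest for Kif23 (0.847, -1.39 against -1.81) and 723 the highest for Cdkn1c (0.796, 4.41 against 4.26). Control 832 was the highest control for Cdk7 (0.918, 0.04 against -0.42). Without it Cdk7 still had no overlap between the groups, since the lowest control value, -0.47, belongs to control 616 and the highest hypothyroid value is -0.55.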

How the results depend on the processing

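No cell cycle gene reached an adjusted p of 0.05 under any of 13 other settings, the 10 fits that left out 1 array or the 4 added after seeing the data (smallest adjusted p 0.339), and no gene of the wider lists did. No paired analysis was possible because each array label carries the number of its own animal and no 2 arrays share one, so that arrays could be paired by slide only, which is given as a block. The median change of the cell cycle genes ran from -0.21 to 0.06 over those settings, from -0.20 to -0.02 when 1 array was left out and from -0.03 to 0.07 over those added. The causes of the following moves were not tested.

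Median centring gave 13 lower genes, 0 with an unadjusted p below 0.05, 1 probe called and 317 probes with an unadjusted p below 0.05, with medians of 0.033 for G1 cyclins and CDKs and 0.13 for the E2F list. Genes with an unadjusted p below 0.05 numbered 1 without background correction, and 0 with the processed signals of Feature Extraction, the liver channel alone or the dyes as labelled. Probes called numbered 1 with processed signals or the liver channel, 0 with slide as a fixed block, probes averaged to genes, the dyes as labelled or without slide 141, 14 with slide as a random block and 11 with the Fs statistic and 100 residual shuffles. Averaging to genes left out every probe without a gene symbol, among them both probes called in the main analysis. Averaging gave 1184 of 14645 genes with an unadjusted p below 0.05, beside 2378 of 32056 probes in the main analysis. The dyes as labelled gave 110 probes below that threshold. On slide 100 the median difference was -0.27 on the liver channel and 0.30 with median centring.

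Leaving out 1 array gave 1 to 30 probes called, 1689 to 3023 with an unadjusted p below 0.05, 19 to 34 lower genes, 1 to 4 genes with an unadjusted p below 0.05, and list medians of -0.16 to -0.021 (G1 cyclins and CDKs), -0.26 to -0.05 (brakes), -0.06 to 0.05 (E2F), -0.13 to 0.02 (origin and fork) and -0.26 to -0.04 (kinetochore). The 30, 19, -0.021 (G1) and -0.05 (brakes) came without control 616; hypothyroid 311 left 1 gene, and 6 probes were called without hypothyroid 723.

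Added after seeing the data, the liver channel without control 616 gave 32 probes called, 20 lower genes, 1 gene with an unadjusted p below 0.05 and a G1 median of 0.034. Median centring without control 616 gave 0, 6, 0 and 0.054, with 158 probes with an unadjusted p below 0.05 and an E2F median of 0.17. A random slide block without control 616 gave 144 probes called and a G1 median of -0.016. Leaving out the 3 control arrays with pancreas transcripts gave 1 probe called, 18 lower genes, 0 genes with an unadjusted p below 0.05 and a G1 median of -0.031.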
